A study of Homo sapiens with 8 samples.

Results

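Dense runs of p53 peaks after doxorubicin were examined in U2OS, an established human osteosarcoma line that, per the labels, expresses endogenous wild-type p53. A run was taken as 5 or more successive peaks of the doxorubicin list with gaps of at most 20 kb, with chromosomes M and Y left out. This gave 29 runs on 13 chromosomes, which held 336 of the 2981 doxorubicin peaks considered (11.3%) and of 24535 peaks in the 4 lists together. The other 2645 doxorubicin peaks lay outside runs. The runs were chosen by the peak positions of the doxorubicin list, so their number, spacing and density are descriptions. The 3 other lists played no part in the choice.

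The study profiled p53 binding by chromatin immunoprecipitation and sequencing with the antibody DO-1. All cells were U2OS and all groups carry a time of 24 h: cells with no treatment, cells with 0.1% DMSO, cells with 0.6 µg/ml doxorubicin and cells with 10 µM Nutlin-3. Per the labels, doxorubicin is to be set against no treatment, and Nutlin-3 against DMSO. Each condition had 1 library, hence no test between conditions was possible and no p-value is given. Without chromosomes M and Y the lists held 459 untreated, 2793 DMSO, 2981 doxorubicin and 18152 Nutlin-3 peaks. The depth behind each list is unknown, and a peak has no height or score.

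The tumour suppressor p53 is a transcription factor that binds short response elements in DNA as a tetramer and activates genes of cell cycle arrest and apoptosis. Doxorubicin poisons topoisomerase II and breaks DNA, which stabilises p53, whereas Nutlin-3 frees p53 from its ubiquitin ligase MDM2 without breaking DNA. Centromeres are built on long arrays of satellite repeats, which the assemblies of that time left largely as gaps, so that peak lists show long empty intervals there. Coordinates are those of hg18 as deposited. No annotation or sequence of hg18 was used here, so the runs are not assigned to genes, exons or repeat classes, and no sequence is printed.

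Most of the runs held peaks from untreated cells and few or none from DMSO or Nutlin-3. At least 1 untreated peak lay in 19 of the 29 runs, at least 1 Nutlin-3 peak in 10 and at least 1 DMSO peak in 6. Over all runs, which together span 843 kb, the untreated list held 116 peaks, the DMSO list 17 and the Nutlin-3 list 41. These were 25.3% of the untreated list, 0.609% of the DMSO list and 0.226% of the Nutlin-3 list. The list with the most peaks genome-wide thus put the smallest share of its peaks into the runs. In number it still had more peaks there than DMSO. Per Mb of run there were 398 doxorubicin, 138 untreated, 20.2 DMSO and 48.6 Nutlin-3 peaks. The density of each list over the genome was not computed, so a small share does not show that a list avoids the runs.

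**Figure D1:**
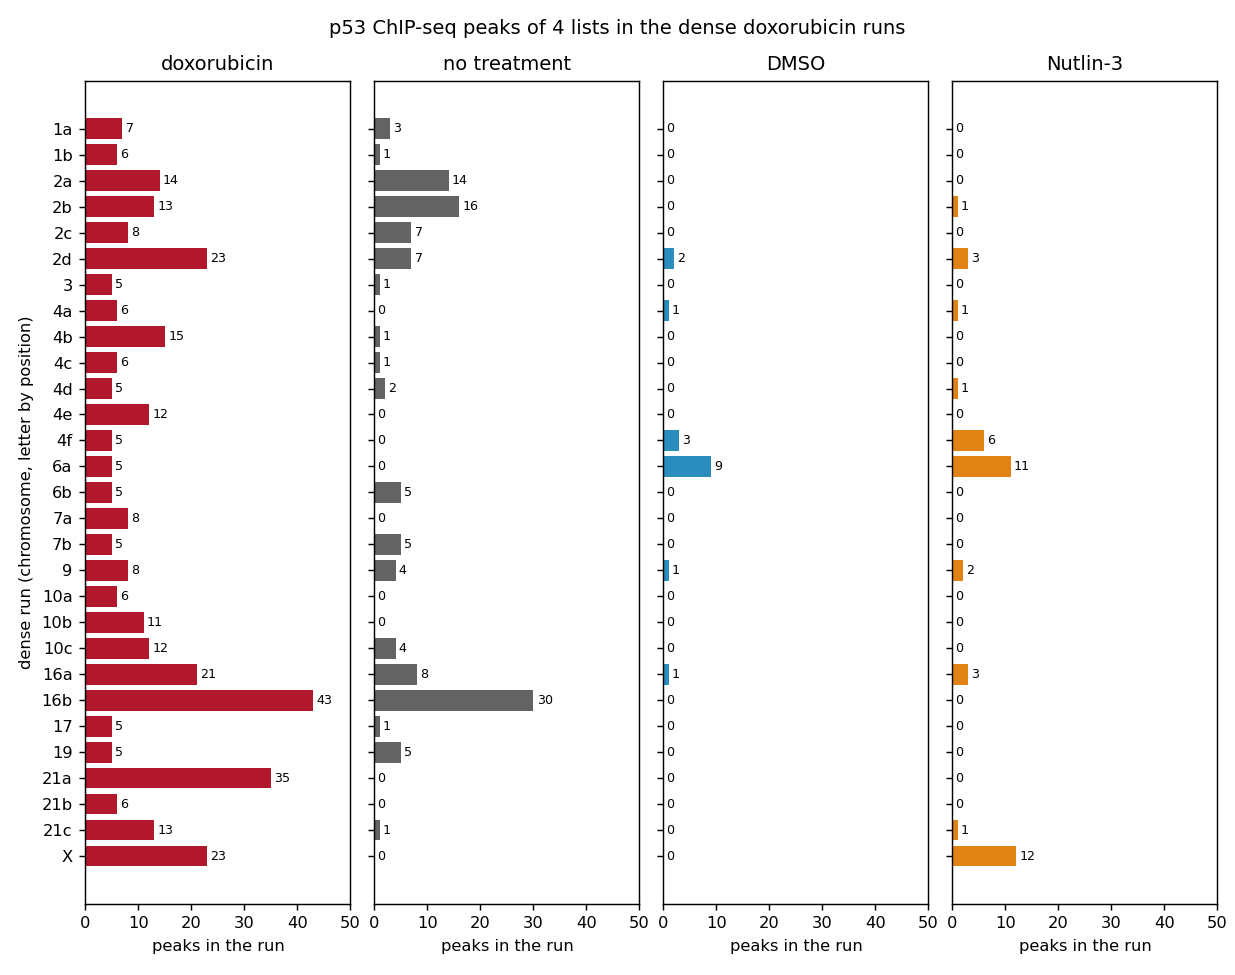
Number of peaks of each list (horizontal axes) in each of the 29 dense doxorubicin runs (vertical axis, named by chromosome and, where a chromosome has several, by a letter in order of position). Run 16b holds 43 doxorubicin and 30 untreated peaks, run 21a holds 35 doxorubicin peaks and none of another list, and Nutlin-3 reaches 12 peaks in run X.

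Peak by peak, 98 of the 336 run peaks (29.2%, exact 95% binomial interval 24.4 to 34.3) shared at least 1 bp with an untreated peak, against 4.96% of all 2981 doxorubicin peaks. Outside the runs, 50 of 2645 doxorubicin peaks did (1.89%, 1.41 to 2.48). The order was the opposite for the other lists. DMSO overlapped 11 run peaks (3.27%, 1.65 to 5.78), against 42.1% of all doxorubicin peaks and 47.0% of those outside runs (45.1 to 48.9). Nutlin-3 overlapped 25 run peaks (7.44%, 4.87 to 10.8), against 65.5% of all doxorubicin peaks and 72.9% of those outside runs (71.2 to 74.6). No peak of any other list overlapped 217 run peaks (64.6%), which compares with 550 of the peaks outside runs (20.8%). The intervals cover counting error only and treat peaks as independent, although peaks of a run share their place, and the difference between the 2 sets of peaks was not tested.

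**Figure D2:**
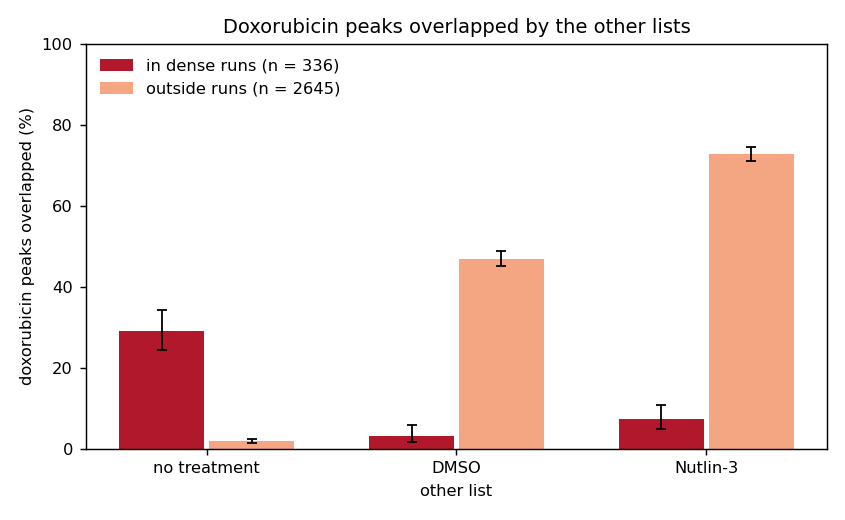
Percentage of doxorubicin peaks (vertical axis) that share at least 1 bp with a peak of each other list (horizontal axis), for peaks in dense runs (dark) and outside them (light), with exact 95% binomial intervals. Run peaks reach 29.2% for no treatment and stay at 3.27% and 7.44% for DMSO and Nutlin-3, where peaks outside runs reach 47.0% and 72.9%.

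Runs are named here by chromosome and, where there are several, by a letter in order of position. The fullest was 16b, on chromosome 16 from 44943311 to 44993031, with 43 doxorubicin peaks in 49.7 kb. It held 30 untreated peaks, and 29 of its 43 doxorubicin peaks were overlapped by them, 14 with identical bounds. DMSO and Nutlin-3 had no peak there, and their nearest peaks lay 2570 kb and 1058 kb away. No list had another peak within 1 Mb on either side, so the run stood alone in an otherwise empty stretch. On chromosome 2, run 2a from 90960871 to 90978131 held 14 doxorubicin and 14 untreated peaks, with 12 of the former overlapped. Its neighbour 2b, from 91124691 to 91185371, held 13 doxorubicin and 16 untreated peaks, of which few matched: 4 of the 13 were overlapped. It was the single run in which untreated peaks outnumbered doxorubicin peaks.

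In 9 runs there were at least 5 untreated peaks: 2a, 2b, 2c, 2d, 6b, 7b, 16a, 16b and 19. Together they held 137 doxorubicin and 97 untreated peaks, beside 3 DMSO and 7 Nutlin-3 peaks. Of their doxorubicin peaks 80 (58.4%, 49.7 to 66.7) were overlapped by an untreated peak. Every peak of run 6b, on chromosome 6 from 58881591 to 58887991, and of run 19, on chromosome 19 from 32424591 to 32432471, had an untreated counterpart. In 6b, 4 of the 5 had the same bounds. A further 10 runs had 1 to 4 untreated peaks, and 18 of their 82 doxorubicin peaks (22.0%, 13.6 to 32.5) were overlapped. Across the 19 runs with an untreated peak the overlapped share ran from 0% in 2 runs to 100% in 2, with a median of 40%. A run listed in both conditions therefore did not mean the same peaks were listed.

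Where run peaks and untreated peaks met, they formed 100 overlapping pairs. The doxorubicin peak was wider in 33 pairs, narrower in 37 and equally wide in 30, and the median difference was 0 bp. Both bounds were identical in 27 pairs. The shared length of 29.2 kb was 31.4% of the 93.1 kb that run peaks covered and 66.4% of the 44.0 kb that untreated peaks covered there. Of the 116 untreated peaks in runs, 91 were overlapped by doxorubicin (78.4%, 69.9 to 85.5), against 50 of 343 elsewhere (14.6%, 11.0 to 18.8). The shares were 64.7% in runs and 44.8% elsewhere for DMSO peaks, and 63.4% and 10.7% for Nutlin-3 peaks. Runs were chosen where doxorubicin peaks are dense, which favours a higher share inside them for any list, so these values are descriptions.

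Doxorubicin peaks alone made up 6 runs, with 78 peaks in 190 kb and none of any other list. These were 21a, 21b, 4e, 7a, 10a and 10b. The fullest was 21a, on chromosome 21 from 9787811 to 9833811, with 35 peaks of up to 760 bp in 46.0 kb. The nearest Nutlin-3 peak lay 333 kb away and the nearest DMSO peak 7024 kb away. Of the 96 doxorubicin peaks on chromosome 21, 54 (56.3%) fell into its 3 runs, the highest share of a chromosome, followed by 42.1% on chromosome 16. Run 21c, from 10118031 to 10168071, had 13 doxorubicin peaks and 1 peak each from untreated and Nutlin-3-treated cells. Run 4b, on chromosome 4 from 48788571 to 48817991, had 15 doxorubicin peaks and 1 untreated peak. Run 10c, on chromosome 10 from 41675171 to 41728331, held 12 doxorubicin and 4 untreated peaks, of which 2 doxorubicin peaks were overlapped.

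**Figure D3:**
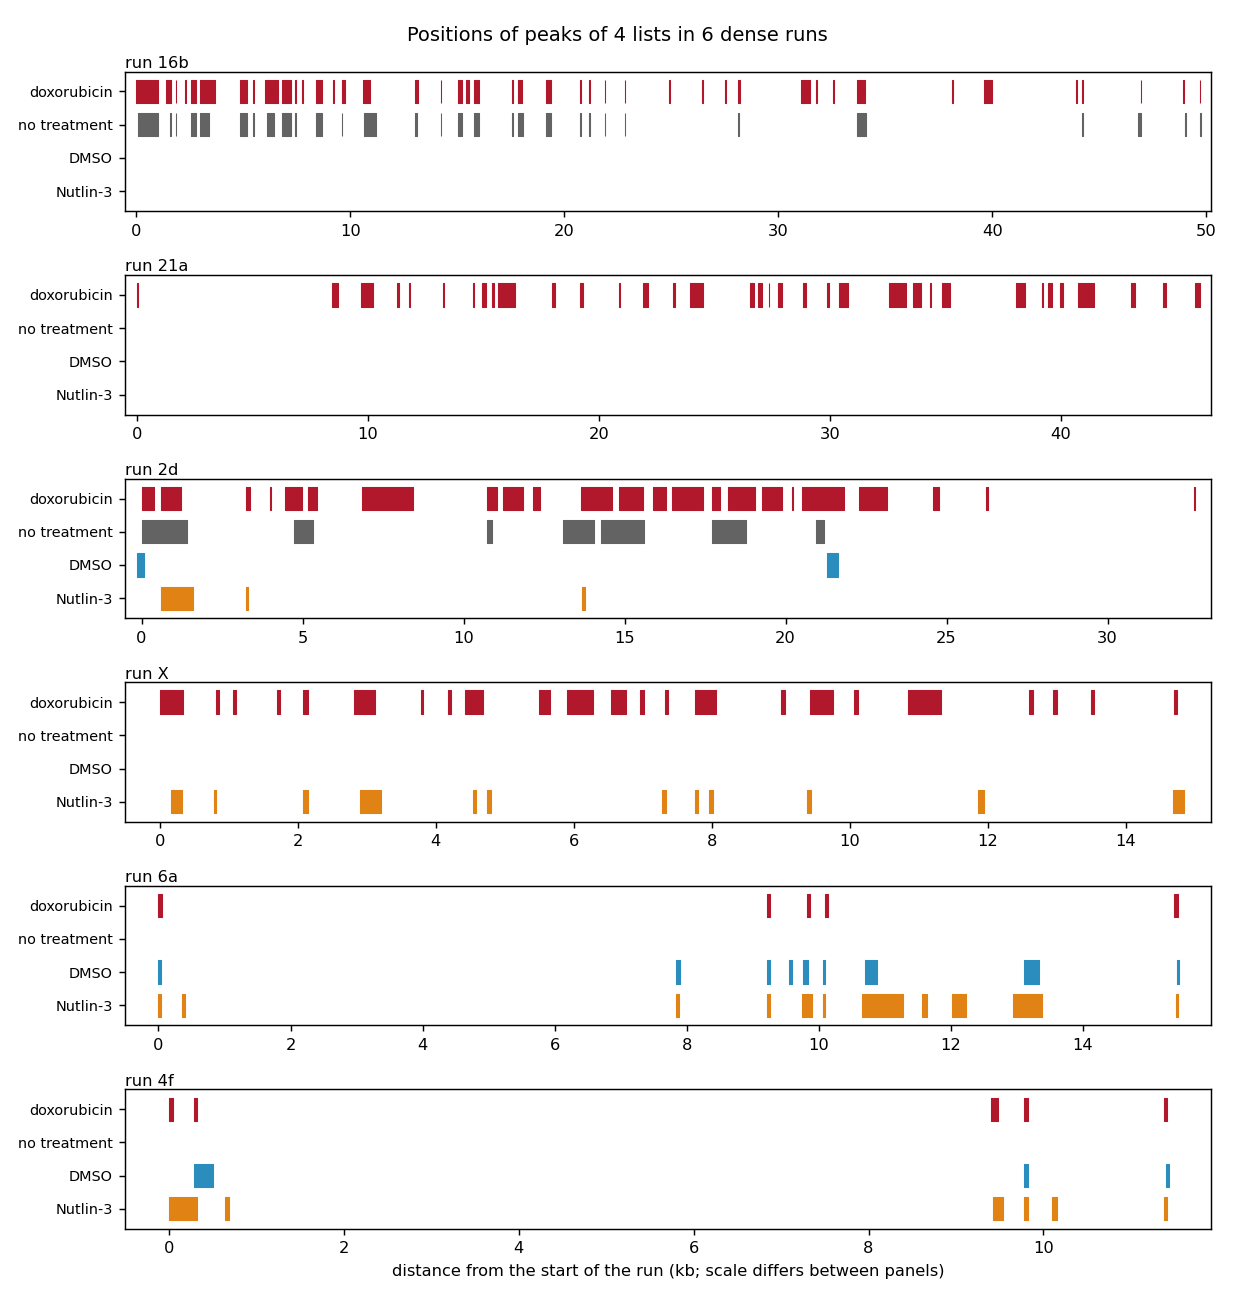
Positions of the peaks of each list (rows) in 6 dense runs (panels) as distance from the start of the run in kb, with a scale that differs between panels; thin peaks are drawn with an outline so that they stay visible. In 16b many untreated peaks sit under doxorubicin peaks, 21a has no peak of another list, X has doxorubicin and Nutlin-3 peaks alone, and 6a and 4f have more Nutlin-3 than doxorubicin peaks.

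In 3 runs, X, 6a and 4f, Nutlin-3 had at least 5 peaks and untreated cells had none. Together they held 33 doxorubicin peaks, 29 of the 41 Nutlin-3 peaks found in runs (70.7%) and 12 of the 17 DMSO peaks. The other 26 runs held 12 Nutlin-3 and 5 DMSO peaks beside 303 doxorubicin peaks. In the other 26 runs both lists were thus few beside doxorubicin, whose density chose the runs. Whether they were few beside the rest of the genome was not tested. The 12 DMSO peaks lay in 6a (9) and 4f (3), and run X had none, so it stood out for Nutlin-3 alone.

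Run X, from 30719691 to 30734431, held 23 doxorubicin peaks in 14.7 kb and 12 Nutlin-3 peaks, with none from either control. It was the only run of the 29 with peaks of both treatments and of neither control. Nutlin-3 overlapped 8 of its doxorubicin peaks, 1 with identical bounds (30721771 to 30721831). The widest doxorubicin peak, 480 bp from 30730531 to 30731011, had no Nutlin-3 counterpart, whereas the widest Nutlin-3 peak, 300 bp from 30722591 to 30722891, did overlap doxorubicin. The median width was 60 bp. This stretch held 29.5% of the 78 doxorubicin peaks on the chromosome, and the nearest DMSO peak was 3753 kb away.

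Run 6a lay on chromosome 6 from 36742991 to 36758431, with 5 doxorubicin, 9 DMSO and 11 Nutlin-3 peaks. CDKN1A, the p53 target that encodes the cell cycle inhibitor p21, lies on the short arm of this chromosome, but no gene was placed here. Its doxorubicin peaks were 40 to 60 bp wide, and 4 of the 5 were overlapped by DMSO and 4 by Nutlin-3. The widest Nutlin-3 peak of the run, 620 bp from 36753651 to 36754271, had no doxorubicin peak on it, and the nearest one ended 520 bp away. The widest DMSO peak, 240 bp from 36756091 to 36756331, also lacked a doxorubicin peak. The doxorubicin list thus marked the run through small peaks beside the widest ones of the other lists.

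Run 4f, on chromosome 4 from 78472991 to 78484411, was similar, with 5 doxorubicin, 3 DMSO and 6 Nutlin-3 peaks. All 5 doxorubicin peaks were overlapped by Nutlin-3, 2 with identical bounds, and 3 by DMSO. Here the widest Nutlin-3 peak, 320 bp from 78472991 to 78473311, covered 2 doxorubicin peaks of 40 bp each. These were the runs with the most DMSO peaks: 9 in 6a and 3 in 4f.

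DMSO peaks occurred in 4 further runs. Run 2d, on chromosome 2 from 132728411 to 132761131, held 23 doxorubicin, 7 untreated, 2 DMSO and 3 Nutlin-3 peaks. Untreated peaks overlapped 10 of its doxorubicin peaks and Nutlin-3 peaks 3. Run 16a, on chromosome 16 from 33829911 to 33890371, held 21 doxorubicin, 8 untreated, 1 DMSO and 3 Nutlin-3 peaks. Run 9, from 67890091 to 67916971, held 8, 4, 1 and 2 in the same order. In each of these 3 runs the widest Nutlin-3 peak was wide for its list, at 980 bp, 860 bp and 460 bp, and overlapped doxorubicin, beside a list-wide median of 60 bp outside runs. The last was 4a, on chromosome 4 from 6491 to 58231, at the very start of the sequence. It had 6 doxorubicin peaks of up to 120 bp, and the outermost, from 6491 to 6611, was the one that DMSO and Nutlin-3 also listed.

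The same definition was applied to each other list. The untreated list gave 11 runs with 112 peaks (24.4% of its list), and 9 of the 11 touched doxorubicin runs. The DMSO list gave 4 runs with 28 peaks, of which 1 touched a doxorubicin run. The Nutlin-3 list gave 289 runs with 1900 peaks, of which 3 (1.04%) touched a doxorubicin run. Counted from the 29 doxorubicin runs, 9 (31.0%) were touched by an untreated run, 1 (3.45%) by a DMSO run and 3 (10.3%) by a Nutlin-3 run. A similar share of peaks lay in own runs with Nutlin-3 (10.5%) and doxorubicin (11.3%), but mostly in different places. The median width of peaks in own runs was 60 bp with Nutlin-3 and 160 bp with doxorubicin.

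Peaks in the runs were wider than the rest of the doxorubicin list. Their median width was 160 bp (quartiles 40 and 345, n = 336), against 60 bp outside runs (quartiles 40 and 80, n = 2645), a description from the list that chose the runs. Of the 336, 106 (31.5%) were at least 300 bp wide, against 5.03% of all 2981 and 44 of those outside (1.66%). At the same time 93 run peaks (27.7%) had the smallest width of the lists, 40 bp. The untreated list, which did not choose the runs, had the same contrast, with a median of 220 bp for its 116 peaks in runs and 60 bp for the other 343. The medians were 80 bp in and 60 bp outside runs with DMSO, and 60 bp in both with Nutlin-3.

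**Figure D4:**
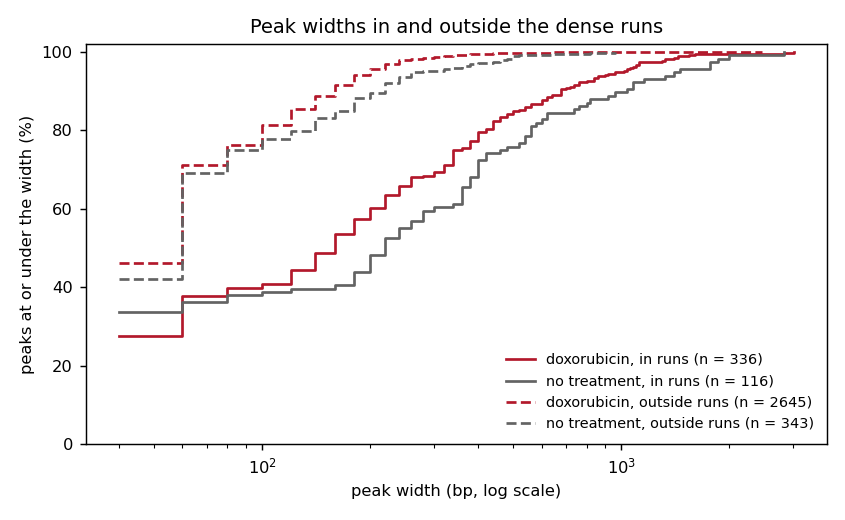
Cumulative percentage of peaks (vertical axis) at or under a width in bp (horizontal axis, log scale) for the doxorubicin and untreated lists, in dense runs (solid) and outside them (dashed). Both solid lines lie to the right, with medians of 160 bp and 220 bp against 60 bp outside runs.

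The widest run peak, of 3020 bp, was in run 19 (32427751 to 32430771), and the next, of 2840 bp, in run 6b (58884471 to 58887311). Run 2d held one of 1600 bp (132735251 to 132736851) and run 10c held 1540 bp (41675171 to 41676711) and 1440 bp peaks (41719251 to 41720691). The chromosome 19 peak spanned 2 untreated peaks and the chromosome 6 peak had an untreated peak of the same bounds. The other 3 had no counterpart in any list, and neither DMSO nor Nutlin-3 overlapped any of the 5. Among run peaks of at least 300 bp, untreated peaks overlapped 48 of 106 (45.3%, 35.6 to 55.2), against 23 of the 93 peaks of 40 bp (24.7%, 16.4 to 34.8). They overlapped 1 of 34 peaks of 60 bp (2.94%, 0.0744 to 15.3) and 26 of 103 of 80 to 280 bp (25.2%, 17.2 to 34.8). The share thus did not rise steadily with width. The median width was 270 bp for run peaks that an untreated peak overlapped and 120 bp for the rest, and wider peaks have more room to overlap.

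Runs differed in how full they were. They were 3.64 to 60.7 kb long, with a median of 25.8 kb, and peaks covered from 0.850% of a run (4a) to 77.9% (19), with a median of 12.8%. The gaps within runs had a median of 1000 bp, and 101 of 307 (32.9%) were at most 500 bp. The highest median width of a run was 1060 bp (19), and in 10 runs it was 60 bp or less. Some runs were therefore blocks of wide peaks close together, and others scattered small peaks. Among the 8 runs with exactly 5 peaks, the shortest was run 17, on chromosome 17 from 22287271 to 22292191 (4.92 kb), and the longest was run 3, on chromosome 3 from 75801011 to 75838251 (37.2 kb).

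The limits of the rule lay close to some peaks. The 8 runs of 5 peaks held 19 untreated, 12 DMSO and 18 Nutlin-3 peaks. Just outside the rule were 5 groups of 4 peaks, with 0 to 4 untreated, 0 to 2 DMSO and 0 to 4 Nutlin-3 peaks each. The largest gap within a run was 18.8 kb, and the smallest distance from a run to the next doxorubicin peak was 20.6 kb, at run 16a.

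Position was described relative to long empty intervals. For each chromosome the longest interval without a peak of any list was found, counting the stretch from the start of the sequence but not that after the last peak. The longest were 27.5 Mb on chromosome 9, 20.3 Mb on chromosome 1 and 18.6 Mb at the start of chromosome 13. Within 2 Mb of such an interval lay 17 of the 29 runs, on 8 chromosomes, with 234 of the 336 run peaks (69.6%, 64.4 to 74.5), against 11.5% of all 2981 doxorubicin peaks and 110 of the 2645 outside runs (4.16%, 3.43 to 4.99). The runs fell on both sides, 8 below and 9 above the interval in coordinate. Run X, with 23 peaks, was among the 17. It lay 1.58 Mb from the longest of 22 intervals of at least 2 Mb on its chromosome.

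Of the 17, 4 directly bordered the interval. Run 16b began at its end, 44943311, after 9.84 Mb without a peak. On chromosome 10 the interval from 39190911 to 41675171 was bordered by a run on each side, 10b and 10c. Run 4e ended where the chromosome 4 interval from 49351791 to 52521651 began. Runs 1b and 19 started 0.160 kb and 0.960 kb past intervals of 20.3 and 8.45 Mb. On chromosome 21 all 3 runs lay 58.9 to 389 kb past the first peak of the chromosome, at 9728931. Doxorubicin peaks helped to bound these intervals. With intervals drawn from the other 3 lists alone, the count was also 17, and with intervals free of doxorubicin peaks alone it was 10.

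**Figure D5:**
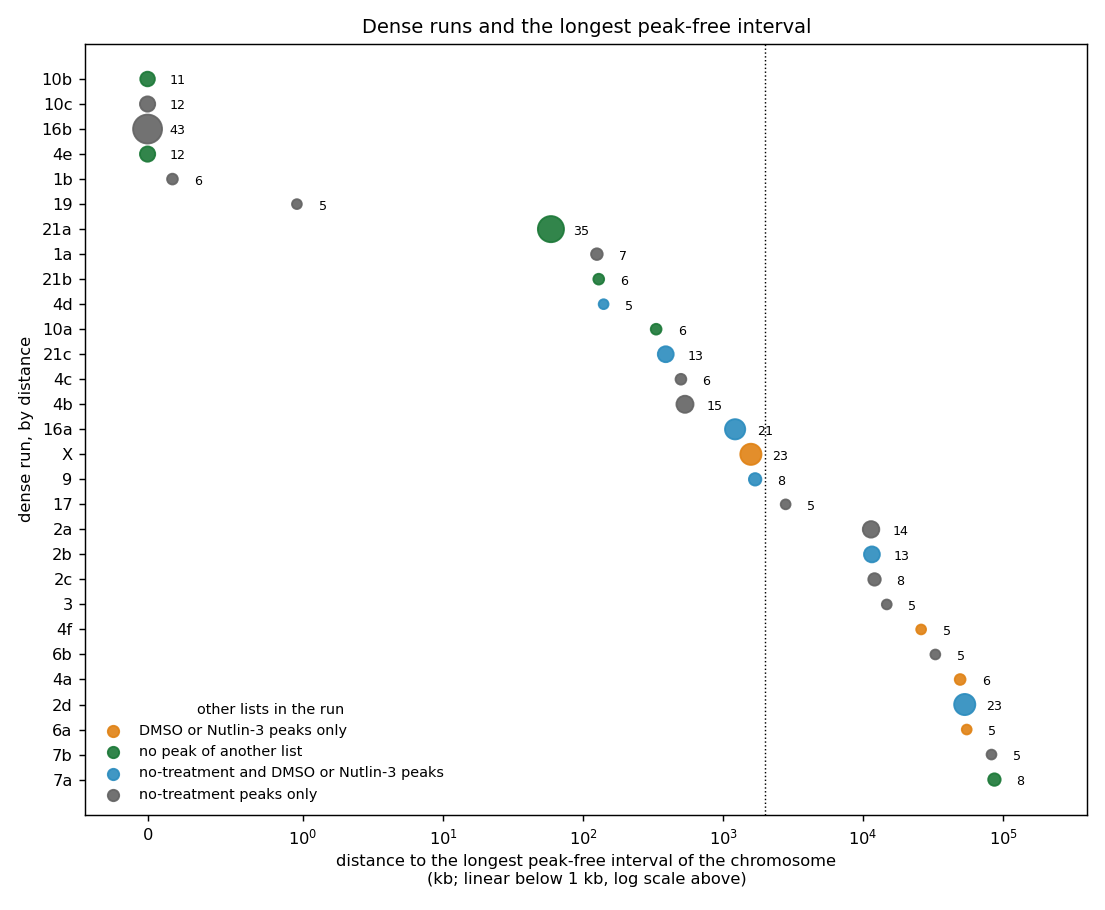
Distance in kb of each dense run (rows, ordered by distance) to the longest interval of its chromosome without a peak of any list, linear below 1 kb and on a log scale above, with circle area and numbers giving doxorubicin peaks and colours the other lists found in the run; the dotted line marks 2 Mb. Left of the line lie 17 runs, among them 16b with 43 and 21a with 35 peaks, and right of it 12, among them 6a and 4f.

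The other 12 runs were farther from the longest interval of their chromosome, and 6 of them still lay within 2 Mb of some interval of at least 2 Mb. Run 2c ended where an interval of 3.15 Mb began, and 2a began 1.42 kb past one of 2.17 Mb. Run 6b ended at the start of an interval of 3.08 Mb, and 7a and 7b lay 452 kb below and 178 kb above one of 3.42 Mb. In all, 23 of 29 runs and 287 of 336 run peaks (85.4%) were this close to some interval of at least 2 Mb, of which the genome had 71, 22 of them on chromosome X, so that this counts little for run X. Outside the runs the share was 203 of 2645 (7.67%). The 6 remaining runs were 2d, 3, 4a, 4f, 6a and 17, which include 2 of the 3 runs rich in Nutlin-3 peaks and the run at the start of chromosome 4. Run 17 could not have been counted, since the longest interval of chromosome 17 was 1.56 Mb and none reached 2 Mb. Its place among the 6 therefore says nothing about its position. Whether an interval is a centromere was not tested, because no map of hg18 was used here.

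Untreated peaks were found at runs near the longest interval of their chromosome and at runs farther from it. The 17 runs near the longest interval held 60 untreated, 2 DMSO and 19 Nutlin-3 peaks, and the 12 farther ones held 56, 15 and 22. Of these 56 untreated peaks, run 2b held 16, 2a 14, 2c 7, and 6b and 7b 5 each. Those runs lay within 2 Mb of another interval of at least 2 Mb. The rest were in runs near no such interval, with 7 in 2d and 1 each in 3 and 17. Untreated peaks overlapped 23.9% (18.6 to 29.9) of run peaks near the longest interval and 41.2% (31.5 to 51.4) of those in the 12 farther runs. The 41.2% therefore does not stand for runs away from every long interval. Within 1 Mb on either side of a run, the doxorubicin list had a median of 5 further peaks (0 to 54), the untreated list 1 (0 to 32), Nutlin-3 3 (0 to 24) and DMSO 0 (0 to 8). These counts include the peaks of neighbouring runs. The 54 were at 21b, beside 21a with 35 and 21c with 13 doxorubicin peaks. The 32 were at 2c, beside 2a with 14 and 2b with 16 untreated peaks. No DMSO peak lay in the flanks of 17 of the 29 runs. From a run to the next doxorubicin peak the median distance was 288 kb, against a median gap of 468 kb in the whole doxorubicin list. Both maxima of 24 Nutlin-3 peaks were at 4f and 6a, where the 3 lists other than the untreated one all had peaks. How the sequence of these stretches, the mapping of reads or the input libraries bear on the runs was not tested.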

How the data were processed

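Per the labels, 1 p53 ChIP library and 1 input library were made for each of 4 conditions. The authors deposited 1 peak list per ChIP library, with 3 columns (chromosome, start, end), no height, score or read count, and widths in steps of 20 bp. The submitters' processing notes name hg18, CASAVA and Bowtie 0.12.2. The sources used here do not give the peak caller, its threshold or the use of inputs.

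Runs, overlaps (at least 1 bp, end taken to lie outside the peak), widths and distances were computed with Python 3.11.15, numpy 2.4.6 and scipy 1.17.1, and figures with matplotlib 3.10.9. A peak of another list was counted in a run when it shared at least 1 bp with the span from its first start to its last end. The code was tested on simulated peaks and recovered 5 of 5 known numbers. The members and lists were chosen with earlier results of these data known. Named by rule were the 10 runs with the most doxorubicin peaks, runs with at least 1 DMSO peak or at least 5 Nutlin-3 or untreated peaks, the 5 widest run peaks, and the shortest and longest run of exactly 5 peaks. Gene names were not assigned. Alternatives changed the gap, the number of peaks, merging, smallest widths, chromosome Y, the overlap rule and the interval.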

Additional observations from a re-analysis of the deposited data

Results flagged for a closer look

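Chromosome Y, which the runs left out, held 5 further runs by the same definition, with 88 doxorubicin, 24 untreated, 0 DMSO and 7 Nutlin-3 peaks. The fullest lay from 11907131 to 11950071, with 29 doxorubicin, 12 untreated, 0 DMSO and 5 Nutlin-3 peaks. In 2 respects doxorubicin and Nutlin-3 differed from their controls with opposite sign, and neither difference was tested. In run 2b, doxorubicin had 13 peaks against 16 without treatment, while Nutlin-3 had 1 more than DMSO (1 against 0). Mean peak width inside the runs was 277 bp with doxorubicin and 379 bp without treatment, a difference of -102 bp, and 168 bp with Nutlin-3 and 125 bp with DMSO, a difference of 43.6 bp. The opposite sign in width held for the mean only. Median widths were lower than in the control for both, at 160 bp against 220 bp for doxorubicin and 60 bp against 80 bp for Nutlin-3. The Nutlin-3 and DMSO values rest on 41 and 17 peaks.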

How the results depend on the processing

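No paired analysis was possible because each condition had 1 library. Peaks above a common score could not be compared, since no score was used here. Of 70 alternatives, 54 kept the value within its 95% interval or within 1.5 times, and 16 did not (12 lower, 4 higher). Fewer peaks or runs entering make the lower counts by construction, except with intervals free of doxorubicin peaks alone, where the same 29 runs entered. A reciprocal overlap of 50% is stricter than 1 bp, so its shares can only be lower or equal. Other causes were not tested. The rule itself moved the counts. With at least 8 peaks a run there were 15 runs, 10 of them near the longest interval, and DMSO overlapped 1.16% of run peaks. Without peaks of 40 bp there were 214 run peaks in 19 runs, with a median width of 240 bp. After merging peaks within 500 bp, 212 run peaks were left. With intervals free of doxorubicin peaks alone, 10 runs were near the longest. With a reciprocal overlap of 50%, the shares of run peaks overlapped by no treatment, DMSO and Nutlin-3 were 16.7%, 1.19% and 2.98%, and within 1000 bp they were 39.9%, 5.95% and 14.9%. Without run 16b, which has the most peaks and also the most overlapped by no treatment, the first share was 23.5%. Without the run that held most of the overlapped peaks, DMSO had 2.11% (without 6a, over 1.5 times lower) and Nutlin-3 5.43% (without X). If ends belong to a peak, the 3 shares were 29.2%, 3.57% and 8.33%. Intervals from the other 3 lists alone, any interval of at least 2 Mb, this reading of ends and the runs left out by overlap were chosen after the data were seen. Read depth is unknown, so a missing peak cannot be told from a shallow library.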
